A study of Mus musculus with 10 samples.

Results

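Vcam1-positive tubule cells of the mouse kidney were picked from single-cell counts by a gate on detected transcripts, where each unique molecular identifier (UMI) stands for 1 captured RNA molecule. A cell entered with at least 500 detected genes and at most 50% mitochondrial UMIs. It was a member with at least 1 UMI of Vcam1, at least 2 of the 6 tubule genes Havcr1, Krt8, Krt18, Cdh16, Epcam and Cp, and 0 UMIs of the leukocyte, endothelial and stromal genes Ptprc, C1qb, Pecam1, Kdr, Pdgfrb and Col1a1. The gate found 2547 members among 52797 kept cells. The 13481 other cells that passed the same gate without a Vcam1 UMI are called Vcam1-negative here and serve as the comparison.

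The study profiled kidney cortex of mice aged 4 weeks by Drop-seq, in which single cells are captured with barcoded beads in droplets. One library came from normal kidneys (the control), 1 each from injured kidneys at day 1, day 2 and day 4, and 2 each from injured kidneys at day 7, day 11 and day 14. All groups share age and tissue, and the labels give no kind of injury, sex, strain or batch. They do not say whether libraries of 1 day came from separate animals, so p-values measure only the spread between these libraries.

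Vcam1 encodes a surface adhesion protein best known from activated endothelium, where integrins of passing leukocytes bind it. Injured proximal tubule cells can also produce it, together with chemokines, complement and antigen-presentation genes that the transcription factor NF-kappaB and the interferon pathways induce. In the kidney such cells are discussed as tubule cells that have lost transport functions and have not regained them. Ubd encodes a ubiquitin-like modifier induced by inflammatory cytokines, Ccl5 a chemokine that draws T cells, C3 the central complement protein, and Cp the copper-carrying ferroxidase ceruloplasmin.

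Libraries held between 7091848 and 31632205 UMIs. From day 1 to day 7 the members were deeper than the Vcam1-negative cells of their own library, with a median of 3041 against 1916 UMIs on day 4 and of 3005 against 2112.5 in the second day 7 library. Their median mitochondrial share on day 4 was 6.35% against 8.27%. No barcode was that of a member in more than 1 library, while 62 kept barcodes occurred in more than 1 library. Levels are given in CPM, a gene's UMIs divided by all UMIs of the summed cells, scaled to one common total. Summed over 9 T and NK cell markers, members reached 0 to 17.6 CPM in the 6 libraries compared further on, against 1.97 to 42.6 CPM in Vcam1-negative cells. The sum of 10 macrophage markers ran from 70.1 to 1487 CPM in members and from 134 to 1796 CPM in Vcam1-negative cells. Members were lower than Vcam1-negative cells in 5 of 6 libraries for the first sum and in 3 of 6 for the second. The part of free RNA or attached leukocytes in the results was not tested.

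Members were rare in the control, frequent among gated tubule cells on days 4 and 7 after injury, and rare again on days 11 and 14. The control held 1 member in 1399 gated cells, a share of 0.0715% with an exact 95% interval from 0.00181 to 0.398%. Days 1, 2 and 4 had shares of 6.02% (4.99 to 7.19), 8.73% (7.35 to 10.3) and 38.5% (36.8 to 40.1). It was 28.0% and 28.4% in the 2 day 7 libraries, 2.37% and 1.56% on day 11, and 0.349% and 0.986% on day 14. These intervals cover counting error only. The base of the shares also changed between libraries. The gate passed 1399 of 6134 kept cells in the control and 3534 of 6417 on day 4. In the first day 11 library it passed 886 of 5409.

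The day 7 libraries lay close together and far above those of days 11 and 14, without overlap. Day 7 averaged 28.2% ± 0.270 (SD, n = 2), day 11 1.96% ± 0.575 (SD, n = 2) and day 14 0.668% ± 0.450 (SD, n = 2). The mean of day 7 exceeded that of the 4 later libraries by 26.9 percentage points. A two-sided exact permutation test over libraries, which doubles the one-sided p, gave p = 0.133. That is the smallest this form of the test allows with 2 against 4 libraries. The control and days 1, 2 and 4 have 1 library each and no replicate check.

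Because a deeper cell shows Vcam1 more readily, the gate was also applied with every cell thinned to 1000 UMIs. The control then had a share of 0.270%, and days 1, 2 and 4 had 3.83%, 4.71% and 28.7%. Day 7 then stood at 24.0% and 19.8%, and the highest of the 4 later libraries at 2.30%. The order of the days was the same as without thinning. Requiring at least 2 Vcam1 UMIs gave 22.2% on day 4, 18.1% on day 7 and 0.811% on day 11. Excluding also cells with a UMI of Lyz2, Tyrobp, Cd74 or Col3a1 left 23.5% on day 4 and 12.6% and 7.63% on day 7. Members then numbered 325 instead of 1359 on day 4, and 37 and 50 instead of 382 and 509 on day 7. Most members of these libraries thus carried a UMI of at least 1 of these genes. No gene comparison was repeated with this stricter gate. Cd74 is itself among the genes higher in members, as given further on.

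**Figure D1:**
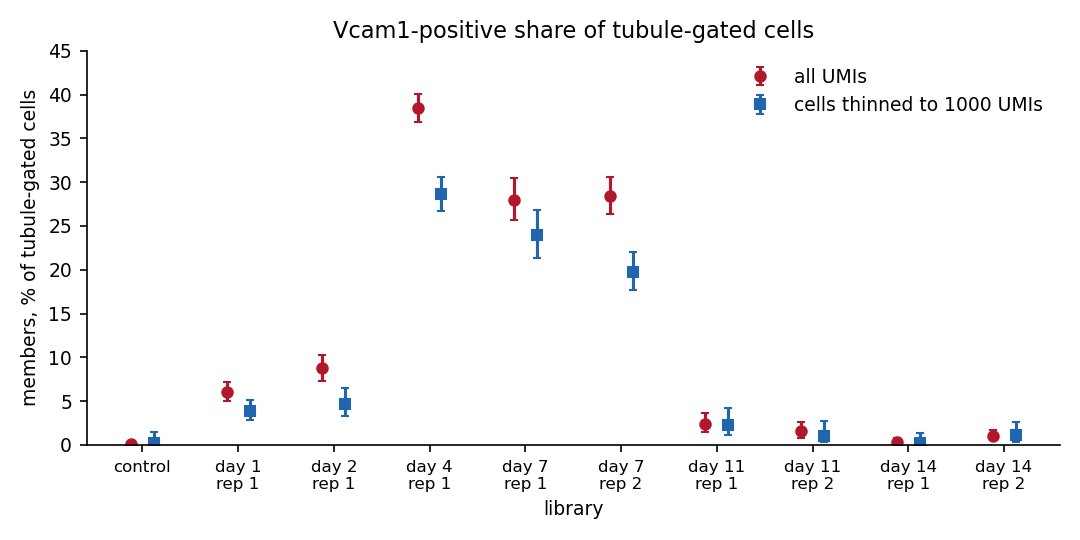
Share of tubule-gated cells that were members, in percent, for each of the 10 libraries in order of day after injury. Points are libraries, error bars are exact 95% binomial intervals, and the second series shows the share after thinning every cell to 1000 UMIs. Day 4 and both day 7 libraries stand between 28.0% and 38.5% without thinning, all others at or below 8.73%.

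Vcam1 UMIs were also found in classes that should lack the gene, where free RNA in the droplets and expression cannot be told apart. The classes of tubule segments and podocytes were not kept apart from gated cells and can include members. Thick ascending limb cells, marked by at least 3 genes such as Umod and Slc12a1, had a Vcam1 UMI in 13.9% of cells on day 4 at a median of 2736 UMIs, and in 4.74% and 2.96% on day 7. Cells marked as T or NK cells had one in 10.4% on day 4, and in 1.75% and 4.48% on day 7. These shares were below the 38.5% of gated cells on day 4 and the 28.0% and 28.4% on day 7. The depths differed on day 4, with a median of 1079.5 UMIs in T or NK cells and 2235.5 in gated cells. At 1000 UMIs that day, 16% (4 of 25) of T or NK cells had a Vcam1 UMI, against 28.7% of gated cells. Some other classes were higher, as with 20% (3 of 15) of podocyte-marked cells on day 4. On day 1, 11.9% (5 of 42) of intercalated-marked cells had one, against 6.02% of gated cells.

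Many cells lay near the edges of the gate. Of the members, 504 had exactly 2 of the 6 tubule genes and 2043 had 3 or more. Outside it, 323 Vcam1-positive cells without a UMI of the excluded genes had only 1 tubule gene, and 461 passed on tubule genes but carried an excluded UMI. A single Vcam1 UMI was all that 59.3% of members had on day 1, 42.3% on day 4, and 39.8% and 32.2% in the day 7 libraries. On day 11 it was 61.9% and 53.8%, and on day 14 100% and 50%.

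The inflammatory markers were carried by most members on days 4 and 7 but by a minority on days 1 and 2. At 1000 UMIs per cell, 62.1% of members on day 4 had at least 1 of Ubd, Ccl5 and C3, and 31.3% had at least 2. In the day 7 libraries 80.6% and 80.4% had at least 1, and 52.7% and 51.4% had at least 2. On day 1 it was 24.0% with at least 1 and 2.88% with at least 2, and day 2 had 22.95% and 3.28%. Most members of these days showed none of the 3 genes at this depth, so the name inflammatory rests on days 4 and 7. Days 11 and 14 had 15.8% and 30%, and 20% and 35.7%, with at least 1, on 5 to 19 members a library.

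Vcam1-negative cells of the same libraries had at least 2 of these genes in 7.72% on day 4 and in 6.77% and 6.04% on day 7. Havcr1-positive Vcam1-negative cells, which carry the injury marker KIM-1, lay between them, with 10.1% on day 4 and 15.3% and 20.1% on day 7. In these 3 libraries the order was the same: members highest, Havcr1-positive cells next and all Vcam1-negative cells lowest. The 3 genes were chosen for this group with such results known, so the values are a description and carry no test.

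**Figure D2:**
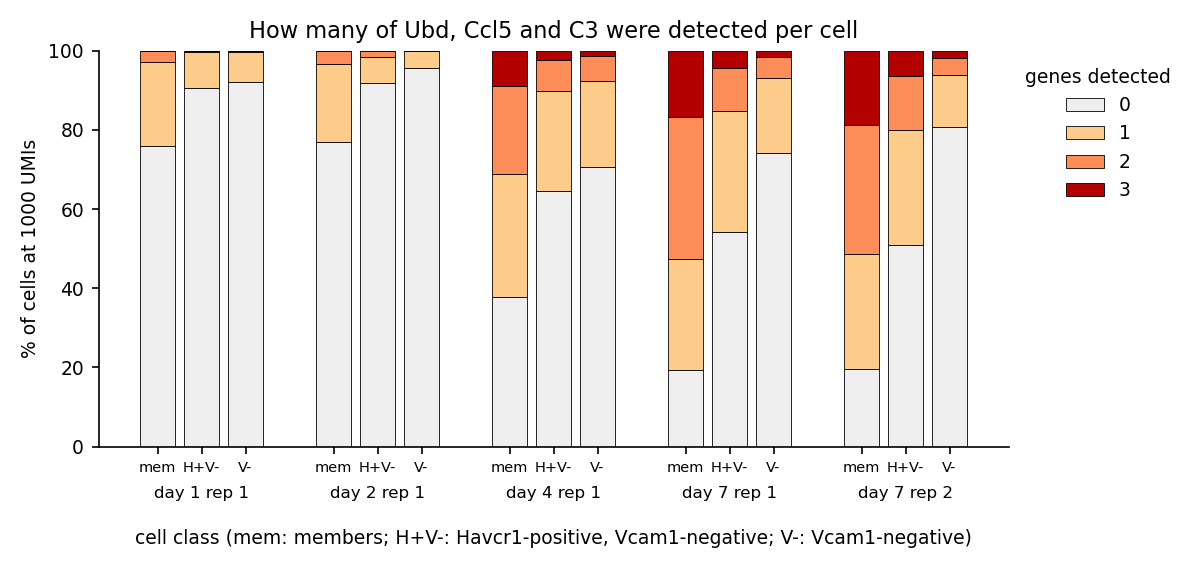
Percent of cells, thinned to 1000 UMIs, with 0, 1, 2 or 3 of Ubd, Ccl5 and C3 detected, as stacked bars for members, Havcr1-positive Vcam1-negative cells and all Vcam1-negative cells in the 5 libraries of days 1 to 7. With 2 or more genes stand 52.7% and 51.4% of members in the day 7 libraries and 31.3% on day 4, against 2.88% on day 1 and 3.28% on day 2.

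Ubd in members was at 92.0, 186 and 790 CPM on days 1, 2 and 4 and at 1133 and 1498 CPM in the day 7 libraries. It stood at 141 and 210 CPM on day 11 and at 61.6 and 257 CPM on day 14. Vcam1-negative cells held 112 CPM on day 4, 152 and 101 CPM on day 7, and less than 11 CPM in each other library. Ubd was thus high in the members of 3 libraries, and above the Vcam1-negative cells in all 9 libraries after injury. The values of day 11 rest on 21 and 13 members and those of day 14 on 5 and 14. All members of the first day 14 library held 32465 UMIs, so its value rests on very few Ubd UMIs.

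Ccl5 was at 40.9 and 36.5 CPM in members of days 1 and 2, at 1403 CPM on day 4, and at 1500 and 2198 CPM on day 7. On day 11 it was at 0 and 60.1 CPM, and at 0 in both day 14 libraries, where few members were found. Vcam1-negative cells reached 208 CPM on day 4 and 172 and 131 CPM on day 7. The step between day 2 and day 4 was larger for Ccl5 than for the other markers.

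C3 took another course, with 276, 103 and 327 CPM in members of days 1, 2 and 4, then 1216 and 1227 CPM on day 7. Its levels on day 11, 376 and 631 CPM, lay above that of day 4, on 21 and 13 members. Cp, which is one of the genes of the gate, stood at 304, 36.5 and 692 CPM on days 1, 2 and 4 and at 1446 and 1290 CPM on day 7. Vcam1 itself was at 368, 438 and 849 CPM in members of days 1, 2 and 4 and at 1543 and 1070 CPM on day 7. From day 1 to day 7, C3 and Cp were lowest on day 2, and Ubd and Vcam1 on day 1.

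UMIs of these genes were also found in thick ascending limb cells. That class was not kept apart from gated cells and can include members, so free RNA and expression cannot be told apart in its shares. Cells of that class thinned to 1000 UMIs had a Ccl5 UMI in 11.7% of cells on day 4 and in 7.02% and 6.89% on day 7. For Ubd the shares were 3.09%, 1.75% and 2.10%, and for C3 4.12%, 9.36% and 2.10%. Cp was found in 6.87%, 14% and 4.19% of these cells, and Cd74, described further on, in 8.93%, 10.5% and 9.88%. Some other classes were higher on day 4. Cells with endothelial markers had a Ubd UMI and a Ccl5 UMI in 14.6% each, and those with T or NK markers had a Ubd UMI in 16%. The part of free RNA in the members' values was not tested.

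Most members carried proximal tubule transcripts. A cell was called proximal-bearing with at least 2 of 12 proximal markers such as Lrp2, Slc34a1 and Kap, and more of them than of any other segment. Proximal-bearing cells made up 70.8% of members on day 1, 92.3% on day 2, 90.4% on day 4, and 59.2% and 68.0% on day 7. In Vcam1-negative cells the same shares were 49.2%, 65.4%, 64.6%, 19.0% and 15.3%. The call counts detected markers, 12 for the proximal tubule and 5 to 7 for each other segment. It was not matched in depth, and the members were deeper from day 1 to day 7. Summed over the 12 markers, members were lower than Vcam1-negative cells in 4 of the 6 libraries compared further on. They held 13953 against 26882 CPM on day 4, but 3227 against 1785 CPM in the first day 7 library. On day 7, 23.8% and 14.9% of members bore no segment's markers.

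The share of members was higher among proximal-bearing gated cells than among all gated cells. The gate counts the injury marker Havcr1 among its tubule genes, so these are not shares of all proximal cells of a library. Members were 46.6% (44.7 to 48.6) of proximal-bearing gated cells on day 4, and 54.7% (49.8 to 59.6) and 63.7% (59.5 to 67.8) on day 7. Day 1 had 8.44% and day 2 11.9%, while the control had 0.191% and the day 11 libraries 4.25% and 2.69%. Of the cells bearing thick ascending limb markers, 12.5% were members on day 4 and 6.18% and 2.45% on day 7. For collecting duct principal cells the shares were 8.16%, 7.14% and 2.80%. Other cells were members more often: those bearing thin limb markers in 50% (5 of 10), 30% (12 of 40) and 39.2% (29 of 74), and those bearing no segment's markers in 36.8%, 28.9% and 33.5%. Cells of the distal convoluted tubule reached 17.5% (7 of 40) in the second day 7 library.

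**Figure D3:**
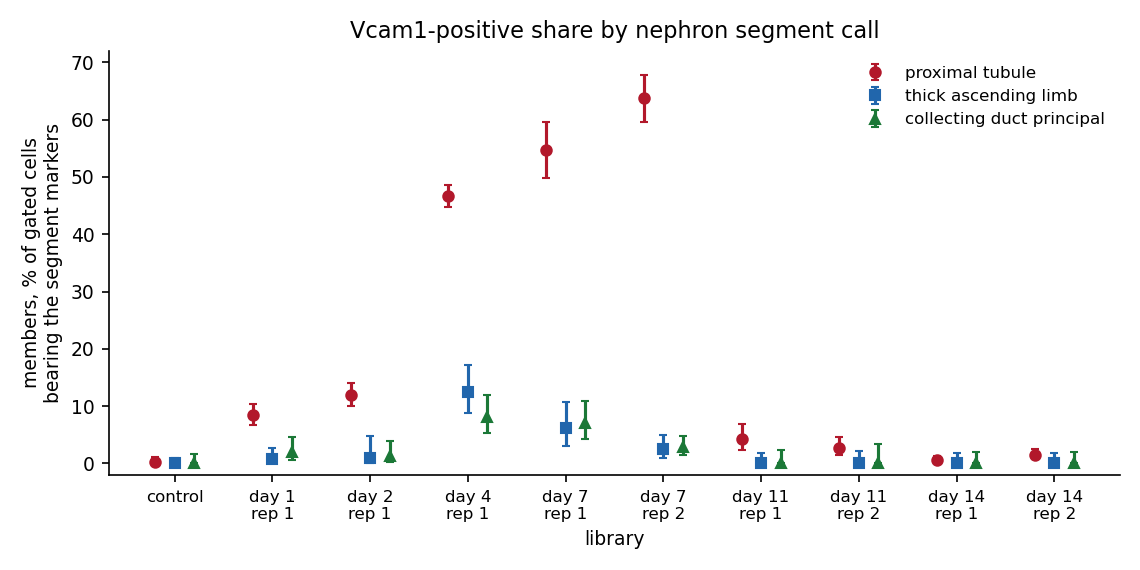
Percent of gated cells bearing proximal tubule, thick ascending limb or collecting duct principal markers that were members, by library, with exact 95% intervals. Other segments and cells bearing no segment's markers are not drawn. Proximal-bearing cells reach 46.6% on day 4 and 54.7% and 63.7% on day 7, and the thick ascending limb and principal cells of these libraries stay at or below 12.5%.

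To ask which genes outside the gate go with Vcam1, counts were summed per library over members and over Vcam1-negative cells. They were tested with edgeR's quasi-likelihood test with the library as a block and Benjamini-Hochberg adjustment at 0.05. Only 6 libraries had at least 20 members: days 1, 2 and 4, both of day 7 and 1 of day 11. Of 11541 genes tested, 1452 were higher in members (12.6% of all tested) and 1572 lower (13.6%), 26.2% in all, with a median log2 difference over all genes of 0.01. The 13 genes of the gate were left out of calls. With comparison cells matched to the members in depth 2575 genes passed, and without the library block 1055.

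NF-kappaB regulators and targets were higher in members as a group: 16 of 22 rose and 0 fell, with a median log2 difference of 1.10. Nfkbia, which encodes the inhibitor that holds NF-kappaB in the cytoplasm and is itself a target, ran from 481 to 1083 CPM in members with a median of 845. In Vcam1-negative cells it ran from 172 to 391 CPM with a median of 237, so the 2 ranges did not overlap. The log2 difference was 1.54 ± 0.12 (SE), adjusted p = 2.0e-05, higher in members in 6 of 6 libraries.

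Traf1, an adaptor of TNF receptors, rose most in this list, by 2.92 ± 0.22 on the log2 scale (adjusted p = 1.7e-05). Its members' levels were low, with a median of 28.8 CPM against 4.34 CPM. Relb, a subunit of NF-kappaB, was at a median of 68.5 against 18.7 CPM and rose by 1.60 ± 0.15, and Nfkb2, its partner, by 1.68 ± 0.13. Icam1, another adhesion molecule for leukocytes, was at 126 against 25.9 CPM and rose by 1.83 ± 0.19. Tnfaip3, which encodes the feedback inhibitor A20, rose by 2.33 ± 0.27 but was at 0 in the members of day 11. Of the 6 that did not rise, Sod2, the mitochondrial superoxide dismutase, stood at -0.35.

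The sequences before the start sites of 6 genes are shown to compare them for the NF-kappaB consensus, which 5 of them hold: Nfkbia from the NF-kappaB list, Cxcl1, Cxcl2 and Cxcl10 from the chemokine list, and the markers Ubd and C3. Each is the 250 bases before the RefSeq start (GRCm38.p6), read 5′ to 3′ on the strand of the gene, with matches to the NF-kappaB consensus on either strand in capitals. Nfkbia lies on the minus strand (chr12:55492648-55492897), Cxcl1, Cxcl2 and Ubd on the plus strand (chr5:90890995-90891244, chr5:90903649-90903898 and chr17:37193642-37193891), and Cxcl10 and C3 on the minus strand (chr5:92348890-92349139 and chr17:57228137-57228386).
Nfkbia: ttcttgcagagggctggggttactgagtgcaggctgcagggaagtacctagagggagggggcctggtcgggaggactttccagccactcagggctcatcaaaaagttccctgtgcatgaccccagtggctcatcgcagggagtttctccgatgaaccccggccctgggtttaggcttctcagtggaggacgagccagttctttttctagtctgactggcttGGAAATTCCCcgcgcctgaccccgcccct
Cxcl1: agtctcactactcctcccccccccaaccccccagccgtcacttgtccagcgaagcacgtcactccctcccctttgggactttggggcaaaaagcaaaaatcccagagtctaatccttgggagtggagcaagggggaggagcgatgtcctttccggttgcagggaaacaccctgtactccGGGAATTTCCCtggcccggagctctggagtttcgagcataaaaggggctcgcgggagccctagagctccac
Cxcl2: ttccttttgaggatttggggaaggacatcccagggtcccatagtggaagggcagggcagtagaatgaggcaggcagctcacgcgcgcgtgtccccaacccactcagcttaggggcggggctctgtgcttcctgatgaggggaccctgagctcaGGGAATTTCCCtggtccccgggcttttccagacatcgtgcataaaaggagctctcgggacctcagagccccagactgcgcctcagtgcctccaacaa
Cxcl10: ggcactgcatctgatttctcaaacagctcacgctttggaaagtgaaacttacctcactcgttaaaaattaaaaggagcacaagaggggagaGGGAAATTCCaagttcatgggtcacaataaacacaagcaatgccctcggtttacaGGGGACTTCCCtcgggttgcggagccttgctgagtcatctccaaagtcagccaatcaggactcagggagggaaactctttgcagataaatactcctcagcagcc
Ubd: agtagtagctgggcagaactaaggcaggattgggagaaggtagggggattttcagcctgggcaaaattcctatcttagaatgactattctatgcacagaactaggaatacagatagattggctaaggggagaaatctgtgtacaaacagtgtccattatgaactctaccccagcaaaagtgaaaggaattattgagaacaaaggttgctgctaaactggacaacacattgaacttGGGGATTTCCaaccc
C3: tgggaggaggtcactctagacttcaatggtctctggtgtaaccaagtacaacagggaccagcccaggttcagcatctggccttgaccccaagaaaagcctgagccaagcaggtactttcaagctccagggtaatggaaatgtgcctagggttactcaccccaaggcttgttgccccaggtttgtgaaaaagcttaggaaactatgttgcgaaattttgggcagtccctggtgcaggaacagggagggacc

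The first match begins 29 bases before the start of Nfkbia, 71 before Cxcl1, 97 before Cxcl2, 159 before Cxcl10 and 15 before Ubd. Cxcl10 holds 2 separate stretches, and C3 has no match in this window. Windows with a match were 7.25% of all 32851 RefSeq windows and 10.4% of those of the genes tested. Among genes higher in members the share was 13.8% (142 of 1026), and among genes lower 10.5% (118 of 1129). Of the NF-kappaB list 10 of 19 windows had one. A match describes the letters only and shows no binding.

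Chemokines and cytokines came next, with 12 of 17 higher, 2 lower and a median log2 difference of 1.26. Ccl5 is among the 12, but it was chosen as a marker with such results known and adds no support. Ccl2, which draws monocytes, was at 158, 287 and 979 CPM in members of days 1, 2 and 4, at 765 and 1024 CPM on day 7 and at 173 CPM in the tested day 11 library. Vcam1-negative cells of the same libraries held 30.9, 28.9, 93.0, 77.7, 54.0 and 1.97 CPM. Every member value lay above every comparison value. The log2 difference was 3.44 ± 0.27 (adjusted p = 2.0e-05).

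The neutrophil chemokines behaved alike. Cxcl1 had a median of 558 CPM in members against 50.7 CPM and rose by 2.96 ± 0.26 (adjusted p = 2.4e-05). Cxcl2 was at 140 against 19.5 CPM and rose by 2.86 ± 0.23 (adjusted p = 2.1e-05). Neither overlapped between the classes. Cxcl5 rose by 3.07 ± 0.32 at low levels, with a median of 26.2 against 1.31 CPM.

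Cxcl10, which draws T cells and is induced by interferon, rose by 2.34 ± 0.23 (adjusted p = 3.3e-05). Its course differed from Ccl5: members held 224 CPM on day 1, 1226 CPM on day 2, 198 CPM on day 4, 271 and 121 CPM on day 7 and 62.7 CPM on day 11. The Vcam1-negative cells of day 2 were also at their highest, 306 CPM. The 2 that fell were Cx3cl1, by 1.33, and Cxcl12, by 0.79 on the log2 scale. Among receptors, Cd40 (2.85 ± 0.28) and Tlr2 (2.30 ± 0.25) led the 6 of 15 that rose, and the receptor Il1r1 was the 1 that fell.

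**Figure D4:**
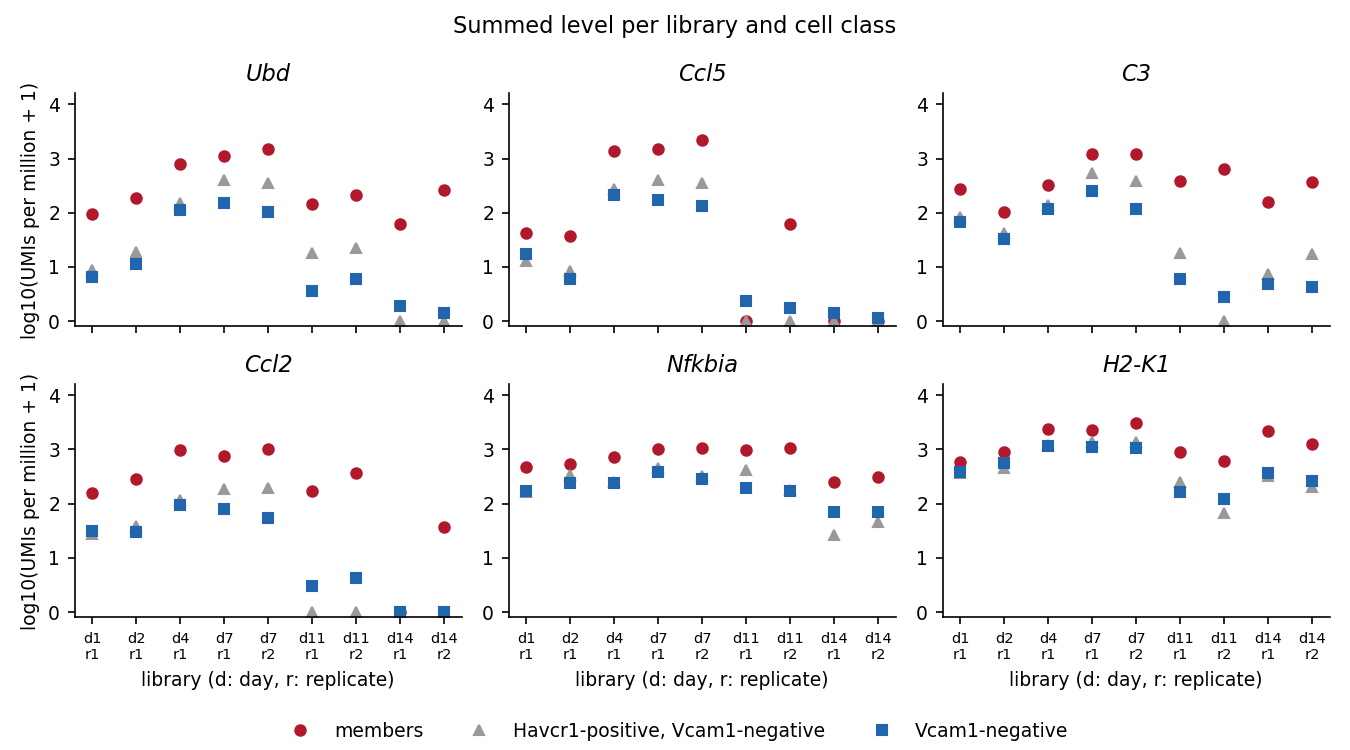
Summed level of 6 genes, as log10 of the CPM plus 1, in each of the 9 libraries after injury, for members (circles), Havcr1-positive Vcam1-negative cells (triangles) and all Vcam1-negative cells (squares). Each point is 1 library. Members lie above the Vcam1-negative cells for Ubd, C3, Nfkbia and H2-K1 in all 9 libraries, while Ccl5 in members is at 0 in 1 library of day 11 and in both of day 14. The libraries of days 11 and 14 hold 5 to 21 members each.

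Antigen presentation was higher in members as well. Of the class I and immunoproteasome genes 15 of 17 rose and 0 fell, with a median of 0.87. Ubd is among the 15, but it too was chosen as a marker beforehand and adds no support. H2-K1, a class I heavy chain, was at 583 to 3081 CPM in members with a median of 1598, and at 165 to 1152 CPM with a median of 819 in Vcam1-negative cells. These ranges overlapped, but members were higher in 6 of 6 libraries, by 1.10 ± 0.17 (adjusted p = 6.1e-04). B2m, the shared light chain, rose by 1.25 ± 0.16 and the proteasome subunit Psmb8 by 0.87. Reads of class I genes can be split among near-identical copies.

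Of 8 class II genes 7 rose and 1 fell. Cd74, the invariant chain, was at 51.1, 139 and 693 CPM in members of days 1, 2 and 4 and at 1199 and 1621 CPM on day 7. Vcam1-negative cells held 36.1, 41.4 and 214 CPM, and 339 and 201 CPM on day 7. The difference was small on day 1 and 1.88 ± 0.26 over all libraries (adjusted p = 2.7e-04). Ciita, the class II transactivator, rose by 1.71 ± 0.24.

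Genes of macrophages, which also express class II, were measured beside these. Lyz2 was lower in members in 6 of 6 libraries, by 1.10 ± 0.20 on the log2 scale (adjusted p = 0.0016), and Ctss, which is in the class II list and is also abundant in macrophages, fell by 1.13. Of the macrophage markers tested, 3 of 7 were lower and 0 higher. The sum of 10 such markers was higher in members in 3 of 6 libraries, among them the second of day 7 (772 against 537 CPM) and that of day 11 (345 against 140 CPM, where 1 of the 10 markers was detected in members). Its part in the class II values was not tested. Interferon-response genes were mixed: 13 of 26 rose and 1 fell, with a median of 0.44. Those that rose were led by Gbp2 (1.79 ± 0.19), Gbp3 (1.72) and Ifit2 (1.64), while Isg15, Ifit1 and Ifit3 did not pass, at 0.15, -0.16 and -0.09.

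Injury genes went both ways, with 12 of 28 higher and 7 lower. Krt20, an intermediate filament gene of injured tubules, rose by 3.08 ± 0.36, Cd44, a hyaluronan receptor, by 2.91 ± 0.25, and Vim, vimentin, by 2.32 ± 0.35. Cd44 had a median of 189 CPM in members against 26.4 CPM. Those that fell included Krt7 (-2.75 ± 0.21), Clu (-2.05 ± 0.36) and Lcn2 (-1.85 ± 0.38), all of which are also made by distal segments, and Sprr2f (-3.51 ± 0.38). The part of the segment mix in these falls was not tested. Havcr1, a gene of the gate, had a median of 1873 CPM in members against 274 CPM and is given without a test.

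Genes of failed tubule repair rose in 12 of 19, with 2 lower and a median of 0.79. Beside Ccl2, Traf1, Relb and Nfkb1, which other lists share, they included Dock10 (2.32), Akap12 (1.62 ± 0.27), Pdgfb (1.43) and Cdh6 (1.12). Dcdc2a, at -0.24, did not pass. In the matrix list 11 of 21 rose and 2 fell. Timp1, a protease inhibitor, rose by 1.69 ± 0.32. Plat, tissue plasminogen activator, stood in no list and was among the largest rises of genes with an average of at least 6 log2 CPM. Its levels were 125 to 385 CPM in members against 5.90 to 45.4 CPM, a log2 difference of 3.19 ± 0.31 (adjusted p = 3.5e-05).

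Of 4 tested markers of parietal epithelium, the cells lining Bowman's capsule, 2 were higher and 1, Dkk3, lower. Summed over 6 such markers, members were higher in 6 of 6 libraries, at 129 to 612 CPM against 50.1 to 219 CPM. The part of such cells in the results was not tested. Both Cldn1, a tight junction gene, by 2.56 ± 0.23, and Akap12, by 1.62 ± 0.27, were higher. Cell-cycle genes were higher in members in 22 of 24 and lower in 0, with a median of 1.29. Ccnb1, cyclin B1, rose by 2.05 ± 0.29 from a median of 5.29 to 20.3 CPM. Mki67 was at 533 CPM in members of day 1 against 122 CPM, and the classes came together by day 7, with 57.5 and 29.5 against 54.1 and 33.1 CPM. Its overall difference was 1.07 ± 0.30 (adjusted p = 0.021).

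Genes of the distal nephron and collecting duct were among the largest falls, beside Sprr2f. Egf (-4.23 ± 0.25), Umod (-3.71 ± 0.56) and Slc12a1 (-3.47) of the thick ascending limb, and Aqp2 (-3.41), the water channel of principal cells, were examples. Of the markers tested, 6 of 7 of the thick ascending limb, 5 of 5 of the distal convoluted tubule, 7 of 7 of principal cells and 6 of 6 of intercalated cells fell. The segment shares given above were called from the same markers, so the 2 are not independent.

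Of 32 proximal function genes only 7 fell and 2 rose, with a median of -0.02, when all members were set against all Vcam1-negative cells. The comparison was therefore repeated with proximal-bearing cells of both classes, in the 5 libraries of days 1 to 7 with at least 20 of each. Here 2122 of 10272 genes passed (20.7% of all tested), 1002 higher (9.75%) and 1120 lower (10.9%). This comparison was added after the first one was seen.

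Within proximal-bearing cells 28 of 32 proximal function genes fell and 0 rose, with a median log2 difference of -1.23. The 12 markers used to pick these cells are among the 32, all 12 of them lower, so their count is not independent of the pick. Of the 20 genes outside the markers 16 fell and 0 rose, with a median of -1.19. Pck1, which encodes the rate-limiting enzyme of gluconeogenesis, was at 65.4, 303 and 138 CPM in members of days 1, 2 and 4 and 23.1 and 37.0 CPM on day 7. Vcam1-negative proximal-bearing cells held 98.3, 489 and 598 CPM, and 132 and 707 CPM on day 7. Members were lower in each of the 5 libraries although the ranges overlapped, by 2.11 ± 0.43 on the log2 scale (adjusted p = 0.0052).

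Outside the markers the furthest falls were those of Acsm3 (-3.16 ± 0.40), a medium-chain acyl-CoA synthetase gene, the organic anion transporter Slc22a8 (-2.35 ± 0.30) and Cyp2e1 (-2.12 ± 0.35), a cytochrome P450 gene. Gatm, of creatine synthesis, fell by 1.27 ± 0.22. Hnf4a, the transcription factor that maintains proximal identity, stood at -0.33 ± 0.14 and did not pass (adjusted p = 0.12). Of the fatty acid oxidation genes 10 of 16 fell and 0 rose, including Ehhadh (-1.26) and Cpt1a (-0.60).

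Members were deeper than the comparison cells here too, with a median of 3138 against 1752 UMIs on day 4 and of 3280.5 against 1995 in the second day 7 library, and a deeper cell reaches 2 proximal markers at a lower level per UMI. The comparison cells were therefore also matched to the members by UMI decile, in the 4 libraries that kept 20 of them, without the first of day 7. Medians were then 3138 against 3132 UMIs on day 4 and 3280.5 against 3368 on day 7. Of 9640 genes 754 were higher (7.82%) and 935 lower (9.7%), 17.5% in all. Of the 20 proximal function genes outside the markers 19 fell and 0 rose, with a median of -1.34. Hnf4a passed in this fit, at -0.56 ± 0.16 (adjusted p = 0.032), and Pck1 stood at -2.31 ± 0.54.

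The inflammatory groups pointed the same way among proximal-bearing cells. Of the NF-kappaB list 17 of 22 rose and 1, Sod2, fell. Chemokines rose in 9 of 15 with 2 lower, class I genes in 14 of 16, and cell-cycle genes in 23 of 23. Class II genes rose in 5 of 8 with a median of 0.75, against 1.68 over all cells. The values of Ccl2 (2.64 ± 0.21) and Cxcl1 (1.81 ± 0.09) were smaller than over all cells but passed.

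**Figure D5:**
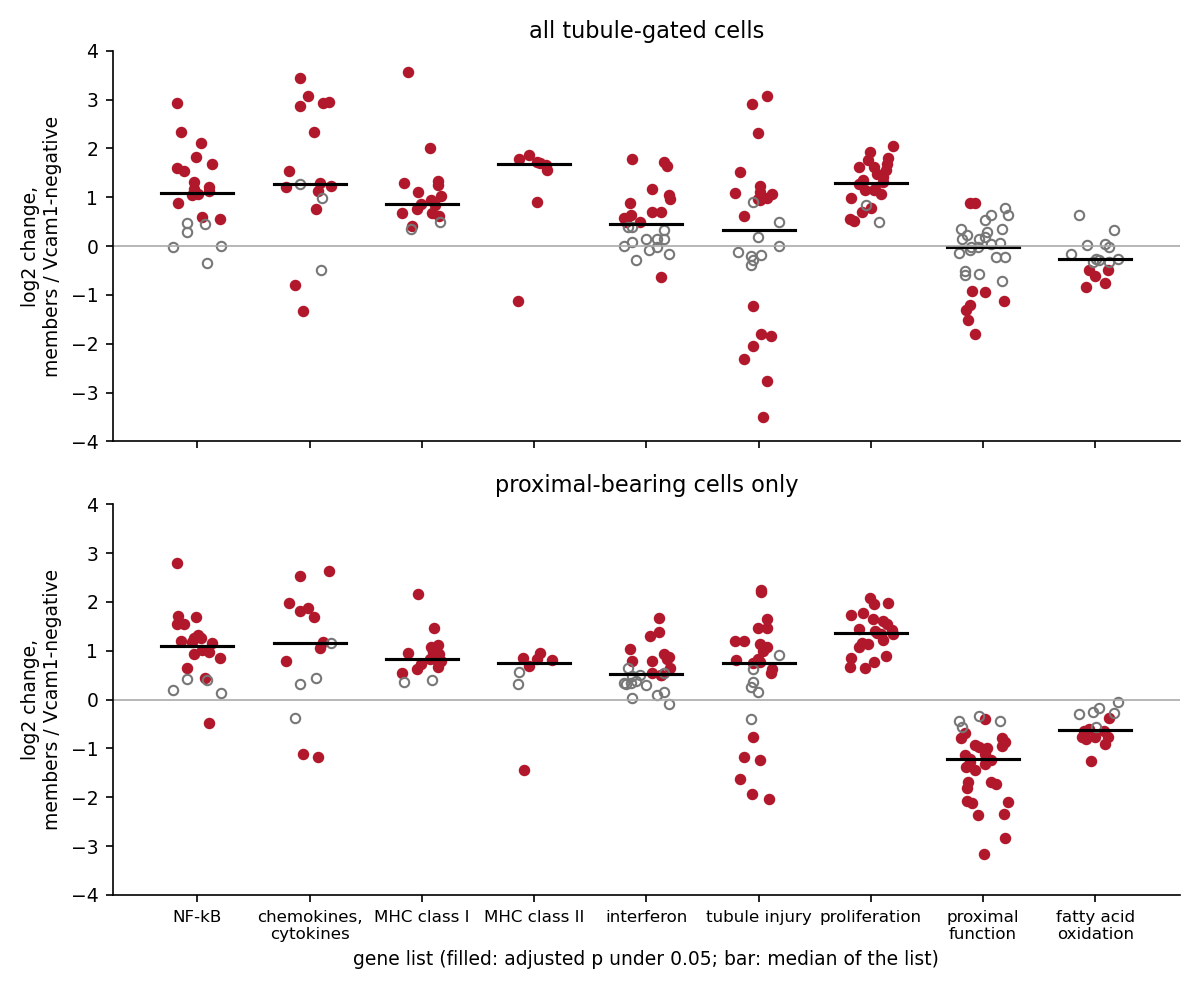
Log2 change between members and Vcam1-negative cells for the genes of 9 lists, with 1 point per gene, filled where the adjusted p is under 0.05, and a bar at the median of the list. The upper panel covers all gated cells and the lower one proximal-bearing cells of both classes. The median of the proximal function list is -0.02 above and -1.23 below, and that of the NF-kappaB list 1.10 and 1.09.

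Members were also compared with the Havcr1-positive Vcam1-negative cells, which carry an injury marker too. In the same 6 libraries 664 of 9360 genes were higher in members (7.09%) and 872 lower (9.32%), 16.4% in all. Leaving out day 4 gave 600 genes, and dropping the library block left 7. NF-kappaB genes rose in 16 of 22 and fell in 1, with a median of 0.89. Class I genes rose in 14 of 16, interferon genes in 16 of 25 and cell-cycle genes in 18 of 22, with none lower.

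Among genes with an average of at least 6 log2 CPM and 1 direction in every library, Ccl20 had the largest rise, 3.04 ± 0.17 (adjusted p = 3.8e-09). Ccl20 draws lymphocytes and dendritic cells. It stood at 457, 13.8, 126, 51.6, 48.5 and 78.4 CPM in members of days 1, 2, 4, 7, 7 and 11, and at 47.9, 1.60, 15.9, 11.7, 2.57 and 0 CPM in the Havcr1-positive cells. Against all Vcam1-negative cells it had not passed (1.27 ± 0.45, adjusted p = 0.060). Those held 71.2 and 32.9 CPM on day 7. Ccl2 (2.56 ± 0.14), Cxcl2 (2.32 ± 0.15), Plat (2.04 ± 0.18) and Cd44 (1.87 ± 0.13) followed. Proximal function genes fell in 23 of 31 and rose in none, with a median of -0.67, led by Acsm3 (-2.34 ± 0.20), Slc7a13 (-2.31 ± 0.26) and Kap (-2.30 ± 0.25). With proximal-bearing cells of both classes 1512 of 9461 genes passed (16%), 655 higher (6.92%) and 857 lower (9.06%), and 18 of the 20 proximal function genes outside the markers fell.

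Among the members themselves, a trend from day 1 to day 7 was fitted over the 5 libraries of days 1, 2, 4 and 7. It is given as log2 change per doubling of the day and was added after the members of each library had been counted. Of 10631 genes 42 rose (0.395%) and 77 fell (0.724%), 1.12% in all. Cell-cycle genes fell in 10 of 24, among them Top2a, by 1.36 ± 0.13, and Mki67, by 1.35 ± 0.14 (adjusted p = 0.012). Mki67 stood at 533, 172 and 75.6 CPM on days 1, 2 and 4, and at 57.5 and 29.5 CPM in the day 7 libraries.

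Class II genes rose in 4 of 8, with Cd74 at 1.68 ± 0.15 (adjusted p = 0.011) and H2-Ab1 at 1.47 ± 0.19. The macrophage gene Lyz2 passed as well, at 1.90 ± 0.35 (adjusted p = 0.046). It was at 11.7, 10.3, 90.1, 472 and 116 CPM in members, and the 2 day 7 libraries lay far apart. Vcam1-negative cells held 48.2, 27.6, 237, 672 and 211 CPM. The part of macrophage RNA in the class II values was not tested. The trend had 3 residual degrees of freedom and rested on the day 7 libraries, since edgeR called 0 genes without the first of them (1418 at an unadjusted p under 0.05) and 0 without the second (724). DESeq2 called 402 genes over all 5 libraries. No gene's trend differed between members and Vcam1-negative cells by edgeR's quasi-likelihood test, with 0% of 12207 genes called, 1145 at an unadjusted p under 0.05 and 26 by DESeq2.

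For the fall after day 7 the data are thin, with 21 members in the only day 11 library that had at least 20. Against day 7, 21 of 11485 genes were higher on day 11 (0.183%) and 22 lower (0.192%), 0.374% in all. The median over all genes was -0.43, to which each value is to be compared, and there was 1 residual degree of freedom. That spread comes from the 2 day 7 libraries alone, and the lone day 11 library is assumed to vary like them, so the errors and p-values hold no spread of day 11. Fst, which encodes the activin inhibitor follistatin, was at 89.2 and 34.5 CPM on day 7 and at 1302 CPM in this library, 4.32 ± 0.44 (adjusted p = 6.0e-06). Its 83 UMIs there came from 6 of the 21 members. In the other day 11 library it was at 330 CPM, and at 0 on day 14.

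Gdf15, a stress-induced cytokine, rose by 3.31 ± 0.44, from 35.7 and 43.1 CPM to 439 CPM, with 661 CPM in the other day 11 library. Atf3 and Btg2, stress-response regulators, rose by 2.28 ± 0.44 and 2.33 ± 0.40, and Miox, a proximal enzyme, by 2.88 ± 0.41. Many of the genes followed in this fit did not pass with RLE size factors, with DESeq2 or without day 2, though none reversed. Ccl2 fell by 2.52 ± 0.45, Cd74 by 2.46 ± 0.41, H2-Ab1 by 3.08 ± 0.46 and B2m by 1.55 ± 0.26. In the other day 11 library, which had 13 members and did not enter this fit, Ccl2 was at 360 CPM and Cd74 at 541 CPM, both also below the day 7 values. Krt20 was at 0 in the tested library, at least 3.97-fold lower than the 187 CPM of the pooled day 7 members, taking 3 UMIs in this library as the floor.

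Ccl5 was at 0 as well, at least 42.8-fold lower than the pooled 2012 CPM of day 7. Of the NF-kappaB genes 0 of 22 passed in this fit, where 0.374% of all genes did, so nothing is read from that count. Nfkbia stood at 1018 and 1083 CPM in the day 7 members and at 973 CPM on day 11, a log2 difference of -0.26 ± 0.31. On simulated data of this design the test recovered 36% of 4-fold and 6% of 2-fold changes.

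The difference between members and Vcam1-negative cells could itself be compared between day 7 and this day 11 library. Of 11596 genes 12 passed (0.103%), 10 with a larger difference on day 7 (0.0862%) and 2 with a smaller one (0.0172%), Fst and Lcn2. Here too the spread comes from the 2 day 7 libraries alone. Including libraries with at least 5 members, which added the other day 11 library and both of day 14, 527 of 10575 genes passed (4.98%), 487 larger (4.61%) and 40 smaller (0.378%) on day 7. The median over all genes was 0.74 there, to which these directions are to be compared. The fit with 20 members called 4 genes larger and 9 smaller with DESeq2 instead of 10 and 2.

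Members of the same later libraries were also compared between days, on 21 and 13 members of day 11 and 5 and 14 of day 14. Against day 7, 66 of 11396 genes were higher (0.579%) and 102 lower (0.895%) on day 11, 1.47% in all, with a median over all genes of -0.39. On day 14, 188 were higher (1.65%) and 223 lower (1.96%), 3.61% in all, with a median of -0.55. Between days 14 and 11, 200 genes passed (1.76%), 89 higher on day 14 (0.781%) and 111 lower (0.974%). RLE size factors, which change only the scaling, put the first 2 medians at -0.17 and -0.34 and turned the balance, with 85 higher and 48 lower on day 11 and 244 higher and 142 lower on day 14.

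These counts also rested on single libraries. Between days 11 and 7 they were 62 and 81 without the first and the second day 7 library, and 100 and 62 without those of day 11. Between days 14 and 7 they were 226 and 224 without either day 7 library, and 207 and 164 without those of day 14. Between days 14 and 11 they were 115 and 117 without either day 7 library, and 91 without the first of day 11. Without the first day 14 library that count was 81 (50 higher and 31 lower on day 14), and without the second 50 (30 and 20), which turned its balance.

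The few members of day 14 carried the transcripts of differentiated proximal tubule. Of 32 proximal function genes 24 were higher than on day 7 and 0 lower, with a median log2 difference of 2.47. This rise was not particular to members. Summed over 12 proximal markers, members went from 3227 and 3956 CPM on day 7 to 53350 and 43933 CPM on day 14. Vcam1-negative cells went from 1785 and 5479 CPM to 49514 and 44215 CPM. The mix of members also differed, with 59.2% and 68.0% proximal-bearing on day 7 and 100% and 92.9% on day 14. The part of that mix in these values was not tested. Slc34a1 was at 308 and 305 CPM in members of day 7, at 282 and 931 CPM on day 11, and at 2125 and 2499 CPM on day 14 (2.84 ± 0.32 against day 7). The Vcam1-negative cells of day 14 held 1448 and 1787 CPM. These include all segments, with 59.5% and 60.4% proximal-bearing cells against 100% and 92.9% of the members, so the levels of the 2 classes are not compared. All 5 members of the first day 14 library and 7 of the 14 of the second rest on a single Vcam1 UMI. Of marked thick ascending limb cells, 0 of 431 in the first library had a Vcam1 UMI, which allows a share of up to 0.696% with 3 counts as the limit, and 1 of 393 (0.254%) in the second, beside member shares of 0.349% and 0.986%.

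Kap, an androgen-regulated proximal gene, was at 301 and 1018 CPM in members of day 7 and at 37271 and 26569 CPM on day 14, where Vcam1-negative cells held 37458 and 29993 CPM. Havcr1, a gene of the gate, went from 2889 and 1431 CPM on day 7 to 110 and 60.1 CPM on day 11 and to 0 in both day 14 libraries. Of the injury list 15 of 28 genes were lower on day 14 and 1 higher, among them Spp1, osteopontin, at 12409 and 18331 CPM on day 7 and at 246 and 1415 CPM on day 14 (-4.17 ± 0.36). Of the NF-kappaB list 2 of 22 were lower and 1 higher. Nfkbia was at 246 and 312 CPM in the day 14 members and H2-K1 at 2218 and 1286 CPM. The Vcam1-negative cells of these libraries held 69.5 and 68.1 CPM of Nfkbia and 370.1 and 263 CPM of H2-K1, over all segments.

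Over the sums of all gated cells of the 10 libraries, the genes whose levels ran most like Vcam1 were Anxa2, Anxa3, Cstb, Cxcl16, Gas5, H2-D1, Lyz2 and Serpinb6b, each with a Spearman correlation of 0.976. Ccl2 (0.973) and Ankrd1 (0.964) came next. These levels were also scaled by edgeR's TMM factors, so they are not CPM as defined above, and the order of libraries can differ between the 2 scales. In these sums Vcam1 itself stood at 0.106 CPM in normal kidneys and at 404 CPM on day 4. The day 7 libraries held 356 and 313 CPM, those of day 11 13.2 and 10.1 CPM and those of day 14 0.766 and 5.75 CPM. These points share library depth and the mix of cells, and the correlation is a description. Annexin A2 and annexin A3 are calcium-dependent membrane-binding proteins, and cystatin B, from Cstb, inhibits lysosomal proteases.

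Vcam1 lies at chr3:116109949-116129688 on the minus strand (mm10, GENCODE M21), with the annotated gene Gm43109 on the opposite strand within it. The labels do not state whether counting used the strand, so reads of the 2 cannot be told apart. The same holds for Cxcl10 with Art3, Ccl2 with Gm17268 and Cp with Hps3.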

How the data were processed

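The authors deposited a table of counts for each library, with gene symbols as rows and cell barcodes as columns. They are whole numbers and were read as UMI counts, which the labels do not state. Bowtie2 2.2.7 and mm10 are named in the submitters' processing notes, and other steps are not given in the sources used here. Per the labels' protocols, the 3' ends of Drop-seq cDNA were sequenced. The groups are those of the titles.

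The members, the gene lists and the comparisons were chosen with earlier results of these data known. Counts were summed per library and class and tested with edgeR 4.0.16 in R 4.3.3 (quasi-likelihood test, TMM, filterByExpr, Benjamini-Hochberg adjustment at 0.05 over all genes tested) in libraries with at least 20 cells of both classes. The script was tested on simulated data. Named genes are examples of the lists, by largest change, and the 10 largest differences per direction with an average of at least 6 log2 CPM and 1 direction in every library. Some of the 10 are not described in the text. Shares have exact (Clopper-Pearson) 95% intervals. Doublet scores came from Scrublet in scanpy 1.11.5, and since its automatic threshold marked at most 0.111% of cells, no cell was removed, and leaving out the highest 5% of scores is an alternative. Others were DESeq2 1.42.0, RLE size factors, no filter on low counts, a mitochondrial limit of 25%, other gates, thinning, depth-matched comparison cells and leaving out each library. Promoter windows are from RefSeq on GRCm38.p6, where 3 of the 5 markers, Ubd, C3 and Cp, had an entry. Members of the control (1) were too few for any test.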

Additional observations from a re-analysis of the deposited data

Results flagged for a closer look

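The difference between members and Vcam1-negative cells was compared between day 7 (2 libraries) and day 11 (the 1 library with at least 20 members) by an interaction term in edgeR's quasi-likelihood test with 1 residual degree of freedom. The spread comes from the 2 day 7 libraries alone, and the day 11 library is assumed to vary like them. Of 11596 genes 12 passed (0.103%), 10 with a larger difference on day 7 (0.0862%) and 2 with a smaller one (0.0172%). The median over all genes was 0.65, and 0.36 by DESeq2, which called 4 genes higher and 9 lower.

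The log2 difference of differences was 3.98 for Ugt2b38, 3.34 for Guca2b, 3.32 for Acsm2, 3.20 for Cideb, 3.20 for Keg1, 3.14 for Igfbp4, 3.07 for Cyp2j5, 2.54 for Sepp1, 2.35 for Pdzk1 and 2.29 for Timp3. Acsm2, Keg1, Cyp2j5 and Pdzk1 are known as genes of the differentiated proximal tubule. Guca2b, which encodes uroguanylin, stood at 1487 and 1818 CPM in members of day 7 against 240 and 302 CPM in Vcam1-negative cells, and at 408 against 431 CPM on day 11. In these libraries 59.2% and 68.0% of members bore proximal markers against 19.0% and 15.3% of Vcam1-negative cells on day 7, and 71.4% against 39.1% on day 11. The part of that mix in the values was not tested.

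Fst (-3.68) and Lcn2 (-3.43) went the other way. Fst was at 89.2 and 34.5 CPM in members of day 7 against 111 and 42.1 CPM, and at 1302 against 79.3 CPM on day 11. Lcn2, a marker of tubule damage, was at 526 and 320 CPM against 1878 and 1570.0 CPM on day 7, and at 314 against 77.4 CPM on day 11. All rest on 21 members of 1 library. Cideb, Keg1, Pdzk1, Timp3 and Fst overlap other annotated genes, whose reads may not be told apart, and Sepp1 was not matched in the annotation used here.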

How the results depend on the processing

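Between members and Vcam1-negative cells, 185 genes picked for passing in the main fit were followed over 14 settings. Of these, 78 passed in each setting that tested them and 142 in each of those that kept the library block, and 0 reversed. The depth-matched setting tested 175 of them. Against Havcr1-positive cells the counts were 2 and 111 of 175. Without the library block 1055 and 7 genes passed. Proximal-bearing cells of both classes, matched in depth, gave 1689 genes against Vcam1-negative cells. Against Havcr1-positive cells, leaving out 1 library gave 600 (without day 4) to 1650 genes. The member share moved with the gate. With at least 2 Vcam1 UMIs the control had 0% and days 1, 2, 4, 7 and 11 had 2.45%, 4.70%, 22.2%, 18.1% and 0.811%. With at least 3 tubule genes these became 0%, 7.33%, 11.8%, 46.0%, 32.2% and 3.86%, and 1.78% on day 14. Excluding cells with Lyz2, Tyrobp, Cd74 or Col3a1 left 6.53% on day 2, 23.5% on day 4, 10.1% on day 7 and 1.30% on day 11, and Cd74 itself rose in members. Thinned to 1000 UMIs it was 3.83%, 4.71%, 28.7% and 21.9% on days 1, 2, 4 and 7. At 750 UMIs it was 0% in the control, then 2.69%, 4.48%, 24.5% and 20.2%. At 1500 UMIs the control had 0% and days 2, 4 and 7 had 6.22%, 34.7% and 27.1%.

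The interaction of day 7 and day 11 called 349 genes with no filter on low counts, 70 at a mitochondrial limit of 25% and 527 with libraries of at least 5 members. Members of day 11 against day 7 gave 19 genes with RLE, 23 with DESeq2, 85 without the highest doublet scores, 168 with libraries of at least 5 members, and 21 (without day 2) to 86 (without day 1) on leaving out 1 library. The trend over days 1 to 7 called 799 genes without a filter, 402 with DESeq2, 265 with at least 2 Vcam1 UMIs, and 0 (without either day 7 library) to 853 (without day 1), with 45 without day 4. Its difference from Vcam1-negative cells gave 204, 26 and 1 under the first 3 settings, and 0 to 18 on leaving out 1 library. The cause was not tested.

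With at least 5 members per library, added after the members had been counted, 168 genes passed between days 11 and 7 (66 higher and 102 lower on day 11, but 85 and 48 with RLE and 115 and 51 with DESeq2), 411 between days 14 and 7 (188 and 223, but 244 and 142 with RLE and 283 and 101 with DESeq2) and 200 between days 14 and 11. Leaving out 1 library gave 62 to 195, 164 to 511 and 50 to 210. With the replicate block they were 127, 334 and 154. Libraries of 1 number did not deviate together (correlations 0.101, -0.0361 and -0.0534), so the numbers are not taken as pairs. At 20 members a library no fit was possible for the control, for day 14, or for day 7 against day 11 with at least 2 Vcam1 UMIs, without a library of these days or with the block.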
